A study of Bos taurus with 30 samples.

Results

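The miRNAs that lie from miR-323 to miR-656 in the imprinted DLK1-DIO3 region were followed in the anterior pituitary (the lobe that secretes the trophic hormones) of 30 Holstein-Friesian bull calves. They were chosen by name, as the rows whose number after "miR-" was 1 of 30 numbers known from this stretch of the cluster, and 41 of the 1030 mature miRNAs in the deposited table met this rule. Of the 30 numbers 29 had a row, and miR-889 had none. From 2 to 12 weeks of age, 15 calves received a high plane of nutrition (HI; 1.5 kg of milk replacer in 10 L per day with ad libitum concentrate) and 15 a moderate one (MOD; 0.5 kg in 4 L per day with 0.5 kg of concentrate), and the pituitary was collected at the end. No calf carried a genetic modification, and 1 small RNA library was made per calf. The question the comparison addresses is whether the plane of nutrition in early life altered these miRNAs in the gland.

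The DLK1-DIO3 region is imprinted, so that its genes are transcribed from 1 parental chromosome. The protein-coding genes DLK1, RTL1 and DIO3 are read from the paternal copy, and the long non-coding RNAs, with the many miRNA hairpins processed from them, from the maternal copy. DLK1 is a regulator of cell differentiation that pituitary endocrine cells are known to make, and DIO3 inactivates thyroid hormone. The miRNAs of the region are known mainly from brain and endocrine tissue. A mature miRNA is a short RNA cut from one or the other arm (5p or 3p) of its hairpin, which lowers the translation and stability of mRNAs that pair with it.

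In the RefSeq gene order of cattle, 59 miRNA genes stood between DLK1 and DIO3, and 40 of the 41 members had their hairpin among them. The exception was miR-544b, whose 2 genes lie elsewhere. The members' run began with miR-323 and ended with miR-656. It spanned 43 miRNA genes, of which 4 were not members (MIR1193, MIR3956, MIR411C and MIR3578). The same region holds 2 further groups that served for comparison, 8 miRNAs around RTL1 and 10 of the miR-379, miR-411 and miR-299 group.

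Values were CPM, reads on a miRNA relative to all miRNA reads of its library, scaled by TMM factors that correct for differences in composition between libraries. HI libraries held 6650492 to 11086524 reads on miRNAs and MOD libraries 7685030 to 9916490. A miRNA with no reads may thus have been present at up to 3 reads, or 0.266 to 0.419 CPM (counting error only). The endocrine markers miR-375 and miR-7 summed to between 119220 and 212047 CPM in each library, as this tissue is known to have. The gland was sequenced whole, so fewer cells of a type and less miRNA per cell cannot be told apart. By label number, the last 9 calves (5 HI, 4 MOD) stood apart from the 21 before them (10 HI, 11 MOD) in many miRNAs in an earlier analysis of these data, which set this boundary from the values, and results are therefore also given within each set.

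The members held reads of a few abundant miRNAs and many scarce ones. Together they summed to 6161 CPM, which was 0.616% of a library on average (0.505% to 0.789%), against 32264 CPM for the RTL1 group and 54588 CPM for the miR-379 group. A total of 7 members averaged above 100 CPM, 20 lay between 10 and 100 CPM, 10 between 1 and 10 CPM, and 1, miR-329b, below 1 CPM with 0 to 2 reads per library. No reads were found for miR-409b, miR-453 and miR-544b in any of the 30 libraries. Sequencing adapters join some miRNA ends better than others, so the order of levels is one of reads and not of molecules.

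The highest member was miR-410, at 2097 to 3952 CPM across the 30 libraries, and it made up 47.3% of the members' sum (43.1% to 52.1%). It was followed by miR-381 at 12.2% of the sum, miR-154c at 9.67%, miR-369-3p at 8.02% and miR-487b at 6.06%. These 5 together held 83.3% of the sum, and between 79.4% and 85.2% in any library. Their genes do not all lie side by side in the run. The hairpin of miR-410 is the next after that of miR-369 near its far end, and that of miR-487b is the next after that of miR-381. The genes of miR-154c, miR-381 and miR-487b lie nearer to its start. Other neighbours in gene order differed widely in level. The gene of miR-412, at 1.94 CPM, lies next to that of miR-369, whose 3p arm was at 325 to 652 CPM, and miR-656, next to miR-323b at the end of the run, averaged 2.19 CPM against 38.9 CPM for miR-323b-3p.

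**Figure D1:**
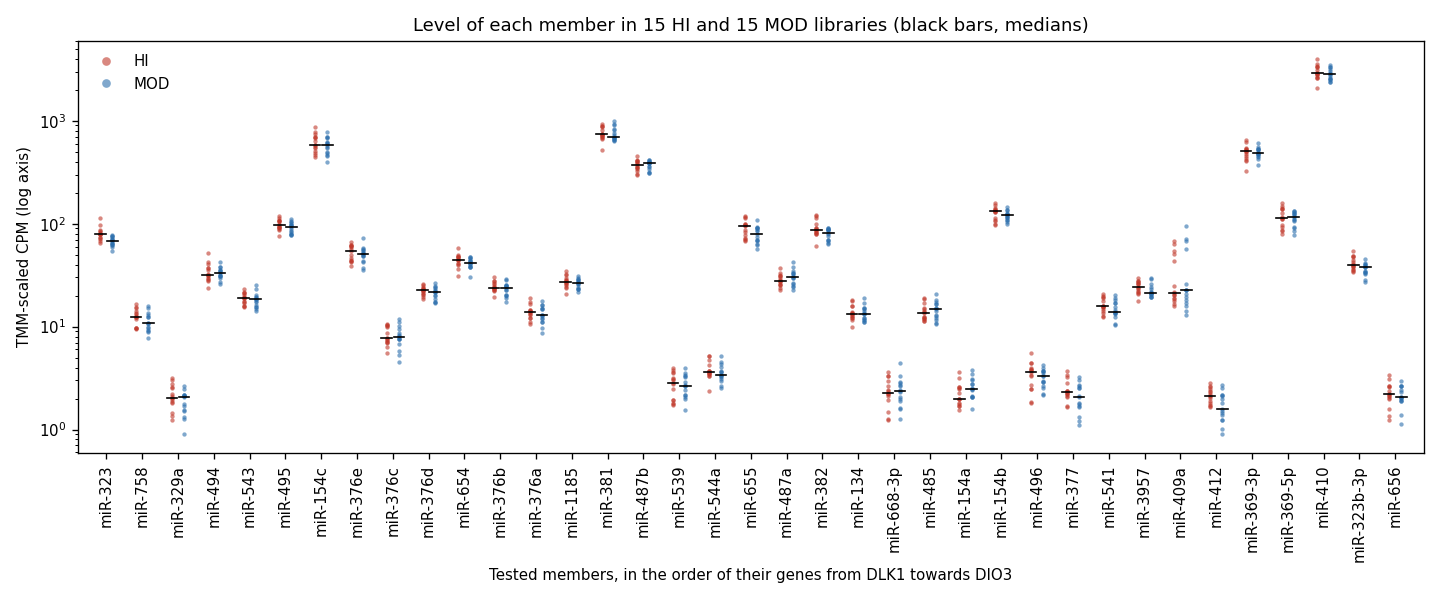
Level in TMM-scaled CPM (log axis) of the 37 members that passed the filter on low values, in the gene order from DLK1 towards DIO3; points are the 15 HI (red) and 15 MOD (blue) libraries and black bars are medians. The level moves up and down along the run, from miR-412 at 1.94 CPM to miR-410 at 2922 CPM on average. The ranges of the diets overlap for each member, though for miR-323 10 of the 15 HI points lie above every MOD point. Only miR-409a has a separate upper cloud of points in both diets.

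Between the diets, the members as a whole differed little. Their summed level was 6293 ± 755 CPM (SD, n = 15) in HI calves, with a lowest value of 4872, a median of 6307 and a highest of 7775. In MOD calves it was 6029 ± 656.4 CPM (SD, n = 15), with 5199, 6020 and 7108. Of the 15 HI calves 12 lay within the MOD range, 1 below and 2 above it, and the log2 ratio of 0.06 was smaller than the pooled SD between calves of 0.16.

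Of the 41 members, 37 passed the filter on low reads and were tested with limma together with all other miRNAs that passed, 419 in all. No member met the study's criteria of FDR < 0.1 and a fold change above 1.5, where 0.477% of all tested miRNAs did. At FDR < 0.1 alone 1 of the 37, miR-323, was called, against 3.58% of all tested miRNAs (1.91% higher and 1.67% lower in HI). At an unadjusted p below 0.05 there were 4 of 37 members, miR-323, miR-412, miR-323b-3p and miR-382, all higher in HI. The share of all tested miRNAs below that p was 12.6%, or 7.4% counting those higher in HI. In the RTL1 group 1 of 8 and in the miR-379 group 1 of 9 tested miRNAs fell below it, and neither group had a call at FDR < 0.1. No member had HI and MOD libraries without overlap, and neither did any other tested miRNA (0.0%).

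The fold changes leaned towards HI, at a small size. Of the 37 tested members 31 had a log2 fold change above 0, against 54.9% of all tested miRNAs, 8 of 8 in the RTL1 group and 5 of 9 in the miR-379 group. The median log2 fold change was 0.07 over the members and 0.02 over all tested miRNAs. The count of members above 0 depended on how libraries were scaled: it was 10 of 37 (27.0%, against 24.3% of all tested miRNAs) with upper quartile factors and 35 of 37 (94.6%, against 75.7%) with total counts. The median of the members stayed 0.05 above that of all miRNAs under each of these scalings. The 6 members below 0 were miR-154a, miR-381, miR-485, miR-487a, miR-487b and miR-668-3p, of which miR-154a had the lowest log2 fold change, -0.15 (FDR = 0.615). Apart from miR-409a, the 95% confidence intervals of all tested members lay between -0.33 and 0.42 on the log2 scale, inside the fold change of 1.5 (0.58) in either direction. These differences are on the log2(CPM + 1) scale, which understates those of scarce members. With 0.1 in place of 1 added, the interval of miR-412 reached 0.63, past that fold change, and those of miR-412 and miR-409a were the 2 that did.

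**Figure D2:**
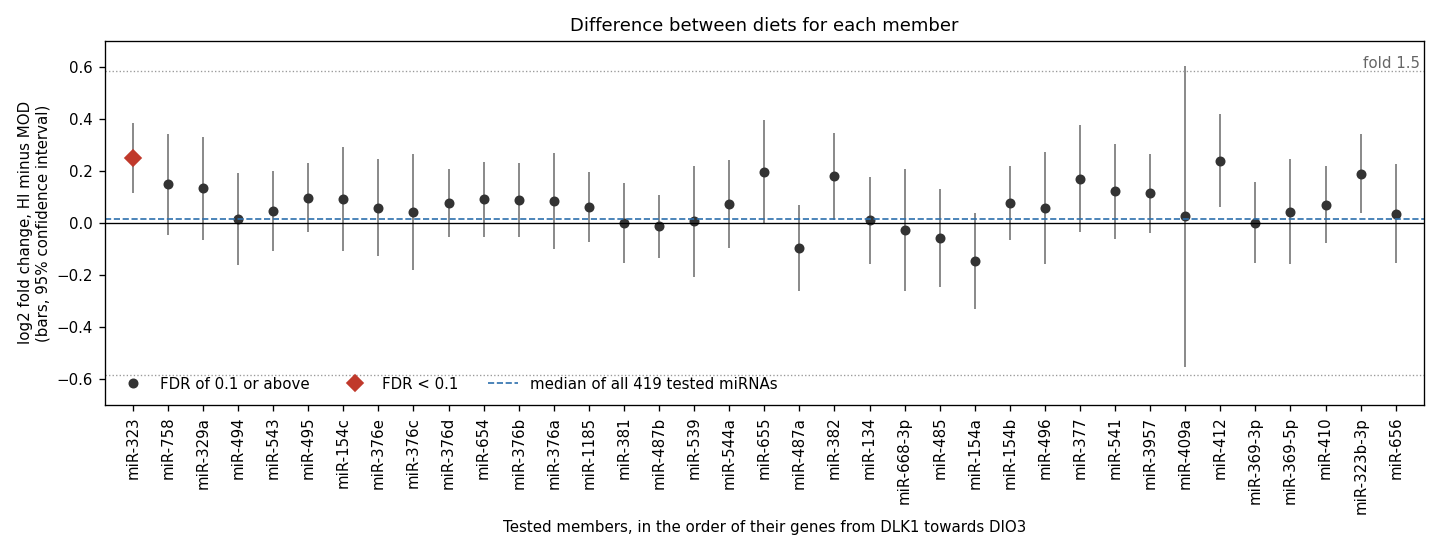
Log2 fold change of HI against MOD for the 37 tested members in gene order, with 95% confidence intervals from limma; the dashed line is the median of all 419 tested miRNAs and the dotted lines mark a fold change of 1.5. The points scatter closely around and slightly above 0, miR-323 (diamond) is the member below FDR 0.1, and the interval of miR-409a is by far the widest.

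The gene of miR-323 opens the run, and miR-323 was higher in HI calves. It was at 65.2 CPM in the lowest, 79.6 in the median and 115 in the highest HI library, and at 54.7, 67.5 and 77.6 CPM in MOD libraries, and the median HI library had 686 reads on it and the median MOD library 560. The ranges overlapped, but 10 of 15 HI calves exceeded every MOD calf and 13 exceeded the median of MOD. The means were 81.1 ± 12.4 CPM for HI and 67.7 ± 6.73 CPM for MOD (SD, n = 15 each), a log2 fold change of 0.25 (SE 0.07; limma p = 0.000749, FDR = 0.0392).

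The difference in miR-323 had the same direction in both label sets. In the 21 calves with lower label numbers it was at 84.5 ± 13 CPM (SD, n = 10) for HI and 69.1 ± 6.30 CPM (SD, n = 11) in MOD (exact two-sided permutation test, p = 0.000612, 0.0147 adjusted over 24 comparisons). In the 9 with the highest it was at 74.2 ± 8.13 CPM (SD, n = 5) and 64.0 ± 7.30 CPM (SD, n = 4), which did not pass (exact permutation p = 0.0952, adjusted 0.286). miR-323 had been picked by its low p in the fit on all libraries, which include those of both sets. The adjustment covered only members named with full values, and not all tested ones. The small p in the 21 calves is therefore no independent test of the difference. Taken against the sum of the other members in the same library, a measure that needs no scaling, miR-323 was 1.32% ± 0.266 in HI and 1.14% ± 0.0838 in MOD (SD, n = 15 each), and 12 of 15 HI calves exceeded the median of MOD. The call was kept when any 1 calf was left out (FDR 0.0249 to 0.0679). It was lost with upper quartile factors (log2 fold change 0.15, FDR = 0.225) and with any of 3 red cell miRNAs as a covariate, miR-486 (0.22, FDR = 0.145) or, added after the data were seen, miR-144 (0.20, FDR = 0.295) and miR-451 (0.21, FDR = 0.180).

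Among marker miRNAs of other cells, the red cell list (miR-451, miR-144 and miR-486, 3 of 3 detected) summed to 10578 to 24489 CPM in HI and 15557 to 27422 CPM in MOD libraries. Its members went in opposite directions: the log2 fold change of HI against MOD was -0.27 for miR-486, 0.46 for miR-144 and 0.55 for miR-451, and none passed FDR < 0.1 in the limma fit. The paper's own edgeR test called miR-144 and miR-451 higher in HI, at FDR < 0.1 and a fold change above 1.5. Both were among the covariates above. The stratified epithelium marker miR-205 was at 113 to 402 CPM in HI and 192 to 749 CPM in MOD libraries, and it was the only 1 of the 8 marker lists with a call between the diets at FDR < 0.1 in the limma fit. The neural list (5 of 5 detected) summed to 345 to 933 CPM in HI and 384 to 618 CPM in MOD libraries. For the stroma list (5 of 5 detected) the range was 32132 to 183329 CPM in HI and 33338 to 76179 CPM in MOD libraries. Its medians were 44906 and 44408 CPM. Striated muscle markers (4 of 4 detected) summed to 5.86 to 85.8 CPM in HI and 7.38 to 30.6 CPM in MOD libraries, with medians of 9.82 and 12.8 CPM. The part of any of these cells in the difference of miR-323 was not tested. The covariate fits above do not test it for red cells, since the covariates had diet differences of their own, in opposite directions.

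The 3 other members with an unadjusted p below 0.05, and the next in order, did not pass the adjustment. The scarce miR-412 rested on 7 to 27 reads per library and was at 1.65, 2.14 and 2.82 CPM (lowest, median, highest) in HI against 0.897, 1.58 and 2.69 CPM in MOD. Each of the 15 HI values exceeded the median of MOD, and the log2 fold change was 0.24 (SE 0.09; FDR = 0.186). At this low level the value depended on the amount added before the logarithm, and it was 0.36 (FDR = 0.174) with 0.1 in place of 1. For miR-323b-3p, whose gene is next to last in the run, HI was at 41.5 ± 5.97 CPM and MOD at 36.2 ± 4.88 CPM (SD, n = 15 each; log2 fold change 0.19, SE 0.07; limma FDR = 0.224). For miR-382 the means were 90.8 ± 16.2 and 79.6 ± 10.3 CPM (0.18, SE 0.08; FDR = 0.332; unadjusted limma p = 0.159 when the 4 ranges of labels, by their second digit, were a block), and for miR-655 they were 91.1 ± 17.4 and 79.3 ± 14.7 CPM (0.20, SE 0.10; FDR = 0.392). Within the label sets none of these 4 members had an adjusted p below 0.05. In the 21 calves the adjusted exact permutation p was 0.0788 for miR-323b-3p, 0.151 for miR-382, 0.0978 for miR-655 and 0.291 for miR-412.

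**Figure D3:**
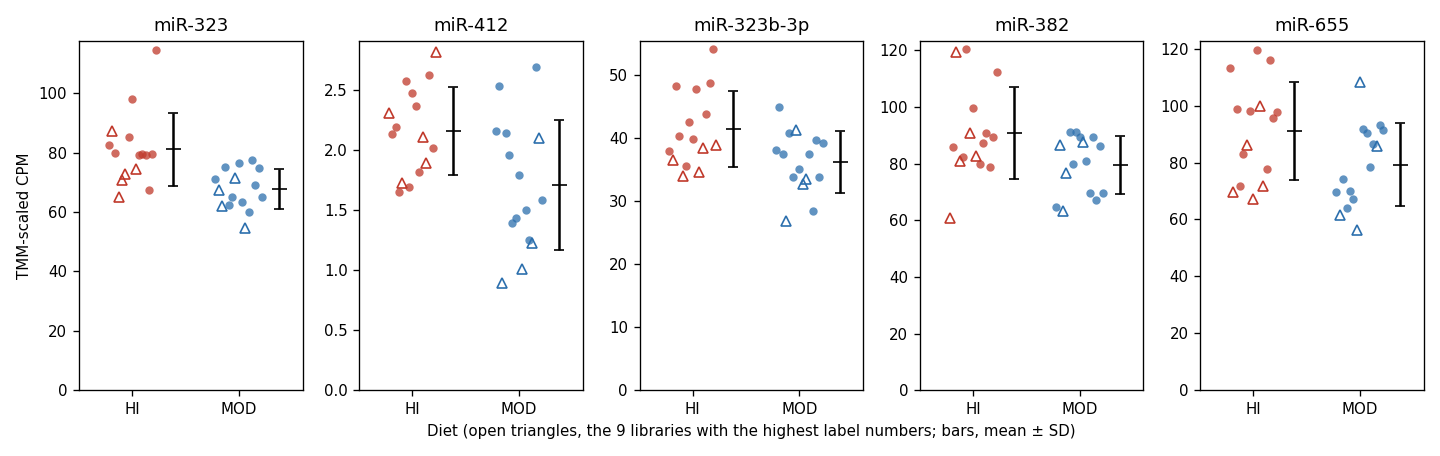
TMM-scaled CPM per calf of the 5 members with the lowest p for diet, by diet, with axes from 0; open triangles are the 9 libraries with the highest label numbers, and bars give mean ± SD (n = 15). For miR-323, 10 HI calves lie above the highest MOD calf at 77.6 CPM, while for the other 4 the diets overlap more; miR-412 lies below 3 CPM in all libraries.

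The abundant members did not pass the test for diet. miR-410 was at 2998 ± 458 CPM for HI and 2847 ± 366 CPM for MOD (SD, n = 15 each; log2 fold change 0.07, 95% confidence interval -0.08 to 0.22; limma FDR = 0.841). miR-381 was at 754 ± 106 and 755 ± 114 CPM, with an interval of -0.15 to 0.15, and miR-487b at 371 ± 44.4 and 373 ± 35.9 CPM, with an interval of -0.13 to 0.11. miR-154c was at 617 ± 123 CPM for HI and 577 ± 105 CPM for MOD, with an interval of -0.11 to 0.29. By label set its log2 difference was -0.03 in the 21 calves and 0.39 in the 9, where HI was at 666 ± 132 CPM (SD, n = 5) and MOD at 504 ± 75.8 CPM (SD, n = 4), which did not pass the adjustment (exact permutation p = 0.0476, adjusted 0.190).

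Among the members, the hairpin of miR-369 is the 1 for which both arms were listed by name. The 3p arm was at 495.6 ± 82.8 CPM for HI and 492 ± 57.0 CPM for MOD, and the 5p arm at 116 ± 24.7 and 112 ± 17.8 CPM (SD, n = 15 each). The ratio of 3p to 5p reads was 4.36 ± 0.784 in HI and 4.47 ± 0.720 in MOD calves, and the log2 ratios differed by -0.04 (two-sided permutation test, p = 0.634). The sign was opposite in the 21 calves with lower label numbers (0.035, permutation p = 0.728), so no direction can be given for the arms.

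The miR-376 family, whose hairpins lie close together in the run and are known as substrates of A-to-I editing in brain, had 5 members here with near-identical names and related sequences. miR-376e took 43.1% of the family's CPM, miR-376b 20.2%, miR-376d 18.4%, miR-376a 11.5% and miR-376c 6.83%. By diet, miR-376e took 43.0% ± 4.14 in HI and 43.3% ± 3.86 in MOD (SD, n = 15 each). No member of the run had a fraction of a read in any library, but how reads shared by related members were assigned is not given in the sources used here, so the split within the family is uncertain.

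The widest variation between calves belonged to miR-409a and lined up with the label numbers; this member was singled out after its values were seen. The 9 libraries with the highest label numbers had miR-409a at 43.0 to 94.0 CPM with a median of 63.4 CPM. The 21 with lower numbers had it at 13.1 to 26.2 CPM with a median of 19.6 CPM. The sets did not overlap, and their means of 63.1 ± 14.7 CPM (SD, n = 9) and 19.5 ± 3.35 CPM (SD, n = 21) differed 3.24-fold. Reads on miR-409a were 388 to 917 in the 9 and 109 to 245 in the 21, while total reads on miRNAs overlapped, at 7926451 to 11086524 and 6650492 to 9577361. As the boundary came from values of these libraries, no test is given. It was the only 1 of the 37 tested members without overlap, against 1.19% of all tested miRNAs, and had the second largest difference between the sets among the 419.

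The other 36 tested members differed between the sets by -0.24 to 0.20 on the log2 scale, with a median of -0.09; 28 were lower and 8 higher in the 9 libraries. A difference past 0.25 in either direction was found for 1 of 37 members, miR-409a, and for 23.2% of all tested miRNAs. The members with genes next to miR-409a did not share its pattern: the set difference was 0.19 for miR-541, -0.05 for miR-3957, -0.13 for miR-412, -0.17 for miR-369-3p, -0.02 for miR-369-5p and -0.21 for miR-410. Its neighbour miR-409b was at 0 in all libraries.

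Diet showed no difference in miR-409a beyond this spread, at 31.7 ± 18.6 CPM for HI and 33.4 ± 25.5 CPM for MOD (SD, n = 15 each; log2 fold change 0.02, SE 0.28; limma FDR = 0.984). Among calves with lower label numbers HI exceeded MOD by 0.03 on the log2 scale (exact two-sided permutation test, p = 0.775). Within the 9 it was -0.36, with HI at 55.8 ± 9.91 CPM (SD, n = 5) and MOD at 72.1 ± 15.7 CPM (SD, n = 4), which did not pass (exact permutation p = 0.0952, adjusted 0.286).

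**Figure D4:**
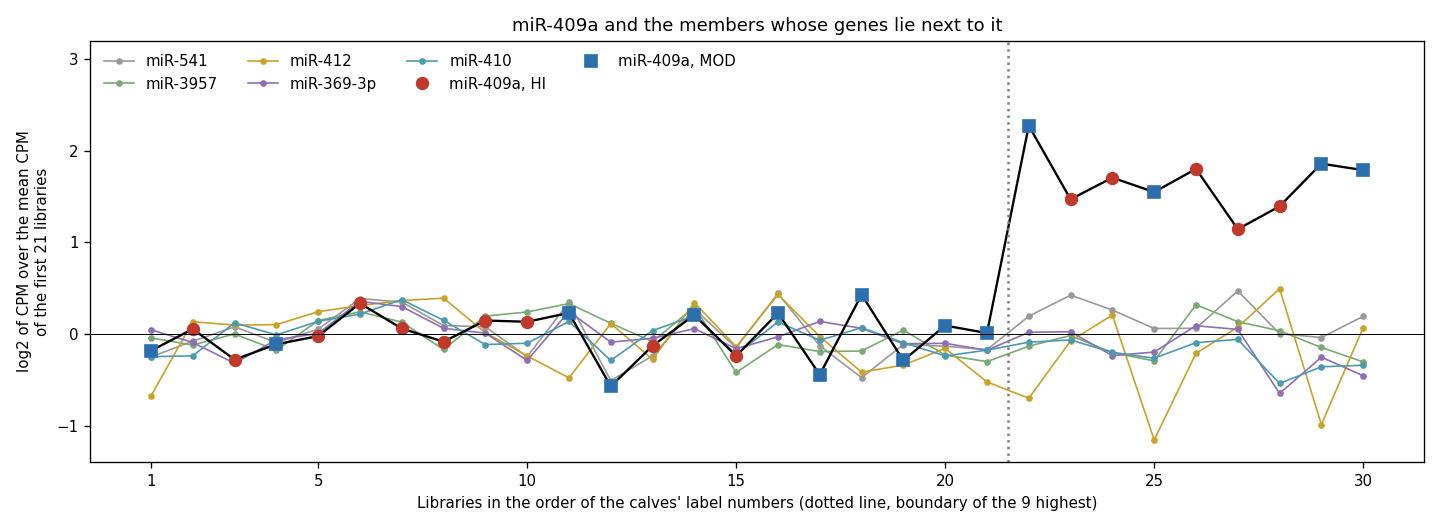
Level of miR-409a (large symbols, red circles HI, blue squares MOD) and of 5 members with nearby genes (small symbols) in the 30 libraries in the order of the calves' label numbers, as log2 of CPM over the mean of the first 21 libraries. From the dotted line on, all 9 values of miR-409a lie above all 21 before it, with both diets on the upper level. The 5 neighbours show no such step. There, miR-410 lies below 0, miR-541 mostly above it, and miR-412 scatters widely on both sides.

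Covariation among the members across calves was weak. After centring within diet, the 666 pairs of tested members had a median Pearson r of 0.17 over the 30 libraries (Spearman 0.17), and 73.7% of pairs were above 0. Pairs of a member with a miRNA of the RTL1 group had a median of 0.22, with the miR-379 group 0.19, with other miRNAs -0.02, and pairs of other miRNAs 0.00. Over the 21 libraries with lower label numbers the median for member pairs was 0.22. By member, the median r with the other members was highest for miR-410 (0.39) and miR-369-3p (0.34) and lowest for miR-409a (-0.11) and miR-496 (-0.06). The pairs share libraries and scaling, and scarce members carry counting noise, so these coefficients are a description.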

How the data were processed

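Condition was taken from the label of each library. Per the study's methods, the authors trimmed adapters (Cutadapt), selected reads by length, discarded rRNA, tRNA and other small RNAs, and quantified miRBase miRNAs on ARS-UCD1.2 with miRDeep2. What the authors deposited is a scaled signal, CPM multiplied by TMM factors. The spacing of low values in a library gave the worth of 1 read, and from it the reads. Of the values above 0 and up to 200 reads, at least 94.8% in each library came out whole within 0.01 of a read. The worth of 1 read was chosen so that most of these values were whole, so this share is no independent check.

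limma 3.58.1 in R 4.3.3 (eBayes with trend) was fitted on log2(CPM + 1) of the 419 miRNAs passing edgeR's filterByExpr by diet, with Benjamini-Hochberg adjustment (FDR). edgeR's quasi-likelihood test (4.0.16) on the recovered reads called 20 miRNAs at FDR < 0.1, 1 of them a member. DESeq2 was 1.42.0. Single values were compared by permutation tests (100000 resamples, or exact within label sets).

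Named with full values are the 5 highest members, those past FDR < 0.1, the 5 with the lowest p, both miR-369 arms and those at 0; miR-409a was added after its values were seen. Members, lists and the label boundary were chosen with earlier results of these data known. Gene order came from the RefSeq table of ARS-UCD2.0, another build, without coordinates. Mature sequences and seeds were not analysed here. The methods were tested on simulated data.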

Additional observations from a re-analysis of the deposited data

How the results depend on the processing

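The 16 alternatives were other tests, scalings, no filter, a pseudocount of 0.1, covariates, and, chosen after seeing the data, the 21 lower label numbers alone and miR-144 or miR-451 as a covariate; 30 further fits left out 1 calf each. In none of them did a member pass FDR < 0.1 with a fold change above 1.5. Members past FDR < 0.1 alone, 1 in the reported fit, were 0 with upper quartile factors and with miR-486, miR-144 or miR-451 as a covariate, 3 with total counts and when the 5 most abundant miRNAs were left out of library sizes (miR-323, miR-412 and miR-323b-3p), and 2 with the set of 9 as a block (miR-323 and miR-323b-3p). The calls over all tested miRNAs moved as well, from 15 of 419 in the reported fit. They were 29 with upper quartile factors, 18 with total counts, 20 without the 5 most abundant and 21 with the set of 9 as a block. With miR-486, miR-144 and miR-451 as covariates they were 9, 6 and 8 of 418. Leaving out 1 calf gave 1 to 2 members, with miR-412 joining miR-323 without MOD replicate 9 (FDR = 0.0750), where 19 of 420 miRNAs were called. Members at an unadjusted p below 0.05, 4 as reported, were 10 with total counts, 13 without the 5 most abundant miRNAs and 2 with miR-486 as a covariate, 3 when label ranges were a block (without miR-382; range 1 of the labels held 2 HI and 5 MOD calves), and 3 to 6 when 1 calf was left out. The share of all tested miRNAs below that p is not given here for these fits. Over all tested miRNAs, fold changes above 0 made up 75.7% with total counts and 76.6% without the 5 most abundant, against 54.9% as reported. Members higher in HI were 10 with upper quartile factors (27.0%, against 24.3% of all tested miRNAs), where the median log2 fold change of the members was -0.02. The miR-369 arm difference changed sign within the other 21 libraries (0.035). miR-323 passed FDR < 0.1 in 12 of the 16. For the other calls that changed the cause was not tested. Per the paper, calves were blocked by age, weight, sire and farm when the diets were assigned. The labels used here do not give these blocks, so no fit used them. No paired analysis was possible because replicates carry no number in the labels. The numbers used here follow accession order and pair no calves. Farm, sire and library batch are not in the labels used here and cannot be told apart from label number. Members below 3 CPM rest on few reads, so small differences were not detectable in them.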

Other observations

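The level of miR-409a was set beside that of miR-99b, the miRNA from which the label boundary had been drawn, a pair chosen after the values were seen. miR-99b was at 6407 to 9694 CPM in the 9 libraries with the highest label numbers and at 4116 to 5185 CPM in the other 21, so no pooled coefficient is given. Within the 9 libraries Pearson's r was 0.923 and Spearman's rho 0.983. No p is given, since the pair was picked for its pattern. Without the 2 libraries farthest from the median of miR-99b, r was 0.840. Within the 21 libraries r was 0.285 and rho 0.329, and r was 0.454 without the 2 farthest.

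Within the miR-376 family, the libraries with the highest label numbers held a larger share of miR-376a (12.7% ± 1.70, SD, n = 9, against 10.96% ± 1.78, SD, n = 21) and a smaller share of miR-376c (5.99% against 7.19%). The sets overlapped for all 5 members of the family, and these differences were not tested.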
